A study of Mus musculus with 9 samples.

Results

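The miRNA content of the normal mouse embryonic kidney at day 16.5 was described from 3 control samples, out of 9 samples in the series. The controls were chosen by their labels: whole kidneys with a wild type genotype at embryonic stage 16.5, titled controls 1, 2 and 3. The labels name no strain and carry no allele or treatment for this group, and they do not say whether the 3 libraries came from separate animals or from pooled kidneys. The spread between libraries may therefore be technical. The other 6 samples, from kidneys with a DROSHA transgene or a DROSHA knockout, were not compared here. Every known mouse miRNA name with reads in a control was included, 1507 names in all.

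miRNAs are short RNAs cut from hairpin precursors, first by DROSHA in the nucleus and then by DICER in the cytoplasm. One strand of the resulting duplex, from the 5′ arm (5p) or the 3′ arm (3p) of the hairpin, is kept by an Argonaute protein and guides it to messenger RNAs, mainly by pairing through the seed. miRNAs with the same seed form a family with overlapping targets. In the developing kidney, miRNA production is needed for nephron progenitor survival and for growth of the collecting duct tree, and the organ at this stage holds progenitors, forming nephrons, collecting ducts, stroma, vessels and blood.

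Between 27210529 and 34896599 reads per control were counted to miRNA names, 80.9% to 81.9% of all counted reads. A level is given in CPM, the reads of a name per 1e+06 miRNA reads of the same library, and ± is the SD over the 3 controls (n = 3 throughout). A single name held by 3 reads would stand at 0.0860, 0.110 and 0.102 CPM in controls 1, 2 and 3. The reads carry no molecular identifiers, so such limits cover counting error only. Of the 1507 names, 1239 had reads in all 3 controls, and the names missing from at least 1 control reached a mean of at most 1.24 CPM. Over the 242 names at or above 100 CPM, Spearman's rho across names was 0.938 to 0.941 between pairs of controls, a description only since names are not independent replicates. Control 3 stood apart by liver, gonad and red blood cell miRNAs. Control 1 stood apart by skeletal muscle miRNAs and some neural ones. These were miR-124-3p and miR-137-3p of the neural marker list and, outside that list, miR-138-5p. For several marker lists the mean is also given with the library that stood apart left out.

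The mature sequences that carried most of the reads are shown first, grouped by seed, since a few seeds accounted for most of the library. They were taken from RefSeq (GRCm38.p6) and run 5′ to 3′, and capitals mark the seed, bases 2 to 8. The let-7 family, which represses growth and early developmental genes such as Lin28 and Hmga2, was represented by the following abundant members.
let-7i-5p: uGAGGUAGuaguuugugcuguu
let-7a-5p: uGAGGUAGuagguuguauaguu
let-7c-5p: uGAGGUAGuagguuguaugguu
let-7f-5p: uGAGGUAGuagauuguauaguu
let-7d-5p: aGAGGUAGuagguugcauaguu
let-7g-5p: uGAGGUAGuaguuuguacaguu
Counted from 1 at the 5′ end of let-7a-5p, let-7c-5p differs from it by the single substitution A19G and let-7f-5p by the single substitution G12A, all outside the seed. Reads of these names are thus told apart by 1 base.

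The most abundant miRNAs of the Hox clusters, the gene clusters that set position along the body axis, belong to the miR-10 and miR-196 seed families and are shown together. miR-615-3p, a further Hox miRNA with another seed, was less abundant (2980 ± 434 CPM).
miR-10a-5p: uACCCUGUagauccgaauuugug
miR-10b-5p: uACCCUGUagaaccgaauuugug
miR-196a-5p: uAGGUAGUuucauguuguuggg
miR-196b-5p: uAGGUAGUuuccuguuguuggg
miR-10a-5p and miR-10b-5p differ by U12A, and miR-196a-5p and miR-196b-5p by A12C. The miR-196 seed AGGUAGU carries the letters of the let-7 seed GAGGUAG moved by 1 base, and both families were counted separately here.

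The remaining large families are shown with their leading members. The miR-99 and miR-100 group, whose known targets include Mtor, differs from miR-10 within the seed.
miR-99b-5p: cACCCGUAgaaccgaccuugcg
miR-99a-5p: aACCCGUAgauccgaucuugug
miR-100-5p: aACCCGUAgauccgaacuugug
miR-26a-5p: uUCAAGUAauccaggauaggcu
miR-322-5p: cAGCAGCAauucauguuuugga
miR-16-5p: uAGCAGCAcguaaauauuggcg
miR-126a-3p: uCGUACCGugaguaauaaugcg
miR-181a-5p: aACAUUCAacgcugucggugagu
miR-451a: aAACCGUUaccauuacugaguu
miR-92a-3p: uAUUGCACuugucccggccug
miR-322-5p and miR-16-5p share the seed AGCAGCA, known for repressing cyclins and other cell cycle genes. The families of miR-26a-5p, miR-322-5p, miR-126a-3p, miR-181a-5p, miR-451a and miR-92a-3p each took between 2.75% and 5.77% of miRNA reads.

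miR-10a-5p was the most abundant miRNA of the control kidney in every library, with 98552, 75784 and 92180 CPM in controls 1, 2 and 3 (88839 ± 11746). It took 8.88% ± 1.17 of all miRNA reads. miR-26a-5p is made from introns or exons of genes for RNA polymerase II phosphatases (Ctdspl and Ctdsp2). By reads on miRNA names, it held rank 2 in all 3 controls with 56043, 48462 and 54922 CPM. The lowest miR-10a-5p value lay above the highest value of miR-26a-5p, so these ranks did not overlap.

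miR-126a-3p, an endothelial miRNA encoded in Egfl7, followed with 39922, 39878 and 50502 CPM. miR-451a, which marks red blood cells and their precursors and is known to be cut by Argonaute 2 rather than DICER, stood at 47054, 41858 and 19382 CPM and was the least stable of the leading names. It held rank 3 in controls 1 and 2 and rank 15 in control 3. Ranks count reads on miRNA names only. A separate Rfam mir-451 row held a further 23733, 26223 and 13955 CPM, and the mir-26 row 2520, 2358 and 2629 CPM. With these rows added, miR-451a would stand above miR-26a-5p in controls 1 and 2. let-7i-5p, the most abundant let-7 member, was steadier at 37554, 34087 and 36311 CPM.

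From rank 6 on, neighbouring names mostly could not be ordered. let-7a-5p (30019 ± 1786), miR-143-3p (29684 ± 3895), a smooth muscle miRNA, and miR-99b-5p (29401 ± 1634) overlapped in range, as did miR-181a-5p, miR-322-5p, miR-10b-5p, miR-99a-5p, miR-92a-3p and let-7c-5p, whose means ran from 24347 to 26921 CPM. Ranges of neighbours were separate only after ranks 1, 5 and 14 among the 25 leading names. The gap after rank 14 holds by name only, since miR-199b-3p has the same mature sequence as miR-199a-3p. Their sum ranged from 23111 to 24820 CPM and overlapped let-7c-5p at rank 14 (23180 to 25882 CPM). Below rank 14 came miR-199b-3p, a mesenchymal miRNA, at 21078 ± 487, followed by let-7f-5p, miR-196b-5p, let-7d-5p, miR-16-5p, miR-652-3p and miR-196a-5p. miR-21a-5p (16679 ± 885), miR-429-3p of the epithelial miR-200 family (15590 ± 942), miR-378a-3p (15566 ± 4285) and let-7g-5p (15317 ± 589) closed the list.

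**Figure D1:**
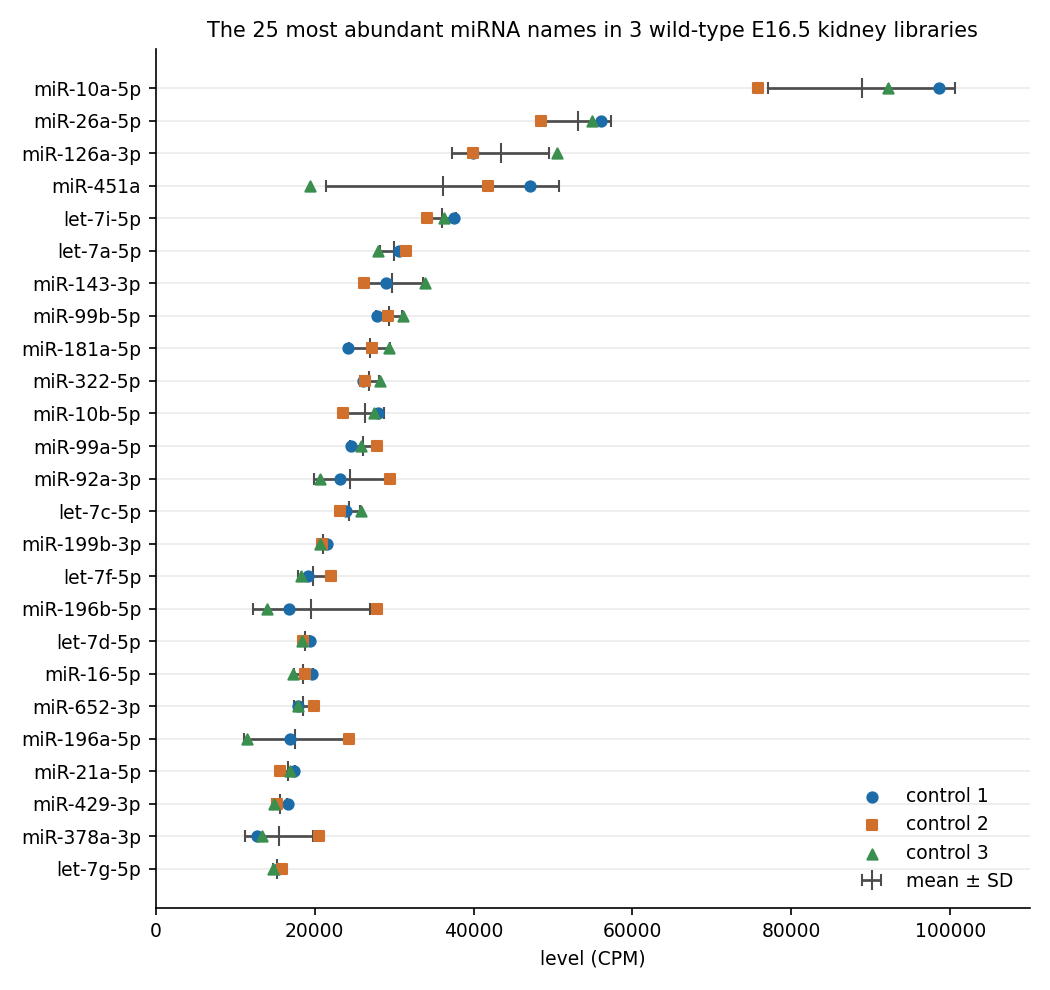
Level of the 25 most abundant miRNA names (x axis, CPM, linear from 0) in each of 3 wild-type kidney libraries (coloured symbols), with the mean and SD over the 3 as a grey bar. miR-10a-5p lies to the right of all others, and the widest bars belong to miR-451a, miR-196a-5p, miR-196b-5p and miR-10a-5p.

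Reads were concentrated in few names. The 10 most abundant names took 40.0% ± 1.84 of miRNA reads, the 25 most abundant took 69.9% ± 1.50, and the 100 most abundant took 94.4%. In each control, 14 or 15 names were enough for 50% of the reads and 65 to 68 names for 90%. At the other end, 737 names reached a mean of 1 CPM and held 99.98% of reads, 242 names reached 100 CPM, and 29 names reached 10000 CPM and held 74.5% of reads. The 25 leading names of each single control shared 24 members with the 25 named here.

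By seed, let-7 was the largest family, with 16.8%, 16.7% and 16.5% of miRNA reads in controls 1, 2 and 3 (16.7% ± 0.173). Its 10 members all exceeded 100 CPM, and no single member led strongly: let-7i-5p gave 21.6% of the family's reads and let-7a-5p 18%. The less abundant members were let-7b-5p (10871 ± 1034), let-7e-5p (8098 ± 417), miR-98-5p (2933 ± 354) and let-7k (404 ± 68.1). The family's summed share had a CV (SD over mean) of 1.04%, below the CV of each of its 10 members, of which let-7d-5p was the steadiest at 3.20%.

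The miR-10 family took 12.7%, 9.94% and 12.0% of reads (11.5% ± 1.41), and miR-10a-5p gave 77.1% of it. miR-10b-5p stood at 27961, 23582 and 27440 CPM and was lowest in the same library as miR-10a-5p, control 2. The miR-99 and miR-100 family took 6.02% ± 0.294, divided between miR-99b-5p (29401 ± 1634) and miR-99a-5p (26069 ± 1624), with miR-100-5p at 4692 ± 368. The miR-26 family took 5.77% ± 0.378, of which miR-26a-5p gave 92.0% and miR-26b-5p (4603 ± 419) the rest.

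The miR-15, miR-16 and miR-322 family was the steadiest of the large families after let-7, with 4.98%, 4.84% and 4.90% of reads. miR-322-5p (26885 ± 1172) led over miR-16-5p (18569 ± 1211), miR-15b-5p (2046 ± 316), miR-497a-5p (813 ± 129) and miR-15a-5p (666 ± 143). The miR-181 family, known from lymphocyte and vascular signalling, took 4.28% ± 0.371. Its members were miR-181a-5p (26921 ± 2594), miR-181b-5p (10842 ± 1526), miR-181d-5p (2705 ± 226) and miR-181c-5p (2313 ± 348).

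miR-196, the other Hox family, was the least even of the multi-member families among the 10 largest. miR-196b-5p stood at 16804, 27907 and 14042 CPM and miR-196a-5p at 16891, 24366 and 11478 CPM. Both were highest in control 2, where miR-10a-5p and miR-10b-5p were lowest, and lowest in control 3. The family's share was 3.37%, 5.23% and 2.55%. miR-451a (3.61% ± 1.47 of reads) and miR-126a-3p (4.34% ± 0.612) were the sole names with their seeds among the sequenced names, and the miR-92 and miR-25 family (2.75% ± 0.451) rested on miR-92a-3p for 88.9% of its reads. Among sequenced names, the 10 largest families together took 63.6% ± 1.52 of miRNA reads, out of 515 seeds at or above 1 CPM. Names with a RefSeq sequence held 91.4% to 93.2% of reads, and names without one, such as miR-143-3p and miR-378a-3p, belong to no family here. The order of families could differ with them. miR-143-3p alone held a mean of 2.97% of reads, above the mean of the miR-92 and miR-25 family.

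**Figure D2:**
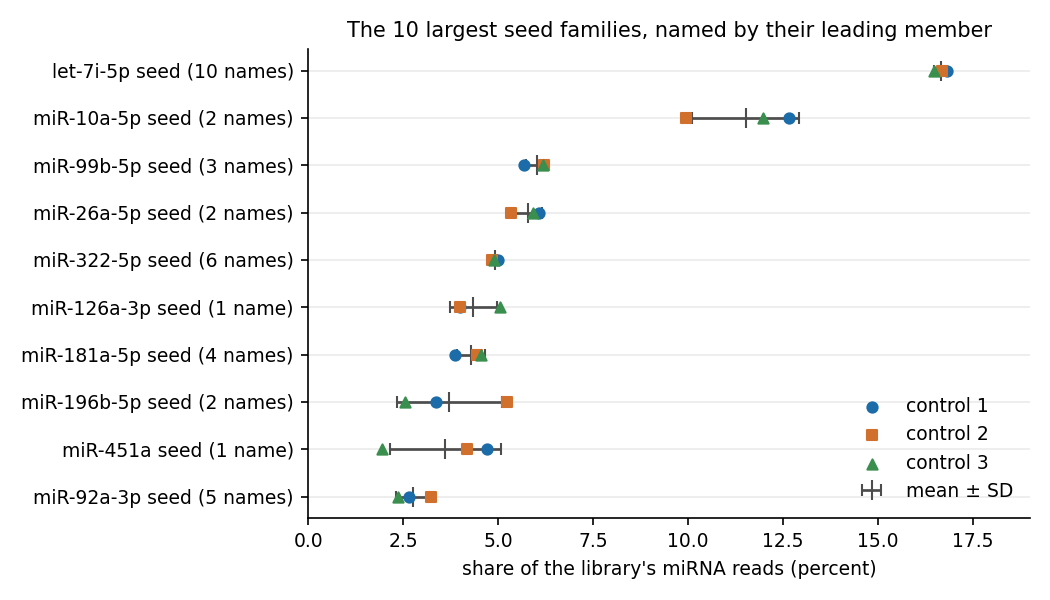
Share of miRNA reads (x axis, percent, from 0) held by the 10 largest seed families among names with a RefSeq sequence, for the 3 controls (coloured symbols) with mean and SD. Each family is named by its leading member with the number of names in brackets. The let-7 family, led by let-7i-5p, sits near 16.7% in every control, while the families led by miR-196b-5p and miR-451a spread most for their size.

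Arm choice was strong and steady. A hairpin was counted where both arms have a name and together reach 10 CPM, with copies of 1 arm added, which gave 294 hairpins. Of these, 214 (72.8%) had at least 90% of their reads on 1 arm, 122 on the 5p arm and 92 on the 3p arm, and 202 did so in each of the 3 controls. The median share of the dominant arm was 97.6%, and the median SD of an arm share over the controls was 0.518 percentage points. Of the 195 hairpins at or above 100 CPM, 121 favoured 5p and 74 favoured 3p. Over those 195, 71.0% of arm reads lay on 5p arms.

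The most abundant hairpins with a dominant 3p arm were miR-126a (96.6% of reads on 3p), miR-143, miR-92a, miR-199b, miR-652, miR-378a, miR-429, miR-200a, miR-27b and miR-27a. The 9 that follow miR-126a each carried at least 98.0% of their reads on 3p. miR-126a kept a measurable 5p product, miR-126a-5p, at 1382, 1379 and 1805 CPM, which placed the less used arm of this hairpin at rank 77 of all names. By reads on miRNA names, its 5p share was 3.35%, 3.34% and 3.45%, nearly the same in each library. A separate Rfam mir-126 row held a further 3278, 2726 and 5183 CPM, more than miR-126a-5p in each control. For miR-143, a mir-143 row held 439, 345 and 27.2 CPM. Which arms the reads of such rows came from is not given, so the arm shares describe only reads that reached a name.

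Few hairpins used both arms. Only 5 of the 195 had a mean 5p share between 40% and 60%, and in 4 the dominant arm differed between the controls: miR-30e, miR-574, miR-3074 and miR-486a. For miR-486a (36.6%, 92.9% and 83.8% on 5p) the share depends on how reads were divided between miR-486a-5p and the name miR-486b-5p, which differed between the controls as given below. miR-574, whose hairpin lies in an intron of Fam114a1, had 54.7%, 46.8% and 54.8% of its reads on 5p, close to an even split in each library. miR-376b was also near balance, with a 5p share of 46.1% ± 4.82 and a slight excess of 3p reads in all 3 controls. miR-296 (61.4% ± 2.05), miR-28a (62.6% ± 4.48), miR-503 (64.4% ± 10.7) and miR-384 (67.1% ± 0.676) favoured 5p in every control.

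miR-30e, whose hairpin lies in an intron of Nfyc, and miR-30a varied alike. The miR-30 family is known for roles in podocytes and in early kidney formation. Their arms are printed because the 2 hairpins share both seeds.
miR-30e-5p: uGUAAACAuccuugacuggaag
miR-30e-3p: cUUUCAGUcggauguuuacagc
miR-30a-5p: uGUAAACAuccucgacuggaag
miR-30a-3p: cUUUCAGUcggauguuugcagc
The 5p share was 48.5%, 39.9% and 61.7% for miR-30e and 59.9%, 52.5% and 71.7% for miR-30a, lowest in control 2 and highest in control 3 for both. The difference lay in the 5p arm. miR-30e-5p stood at 295, 191 and 491 CPM while miR-30e-3p stood at 314, 289 and 304 CPM. miR-30a-5p stood at 999, 771 and 1755 CPM while miR-30a-3p stood at 669, 699 and 693 CPM and was among the 10 steadiest names. In the same files, a separate row for the Rfam family mir-30 held 60.5%, 62.6% and 54.0% of that family's reads, lowest in control 3. Which arms those reads came from is not given, so the arm shares of this family describe the reads that reached a name, and the part of the family row in the difference was not tested.

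For miR-199a the arm share could not be settled, because its 3p product has the same mature sequence as that of miR-199b.
miR-199a-3p: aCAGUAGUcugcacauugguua
miR-199b-3p: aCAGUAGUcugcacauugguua
By name, miR-199a had 68.2%, 57.7% and 53.9% of its reads on 5p, and miR-199b had 99.4% on 3p. With both hairpins added, 87.4%, 84.4% and 83.3% of reads lay on the 3p arm.

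**Figure D3:**
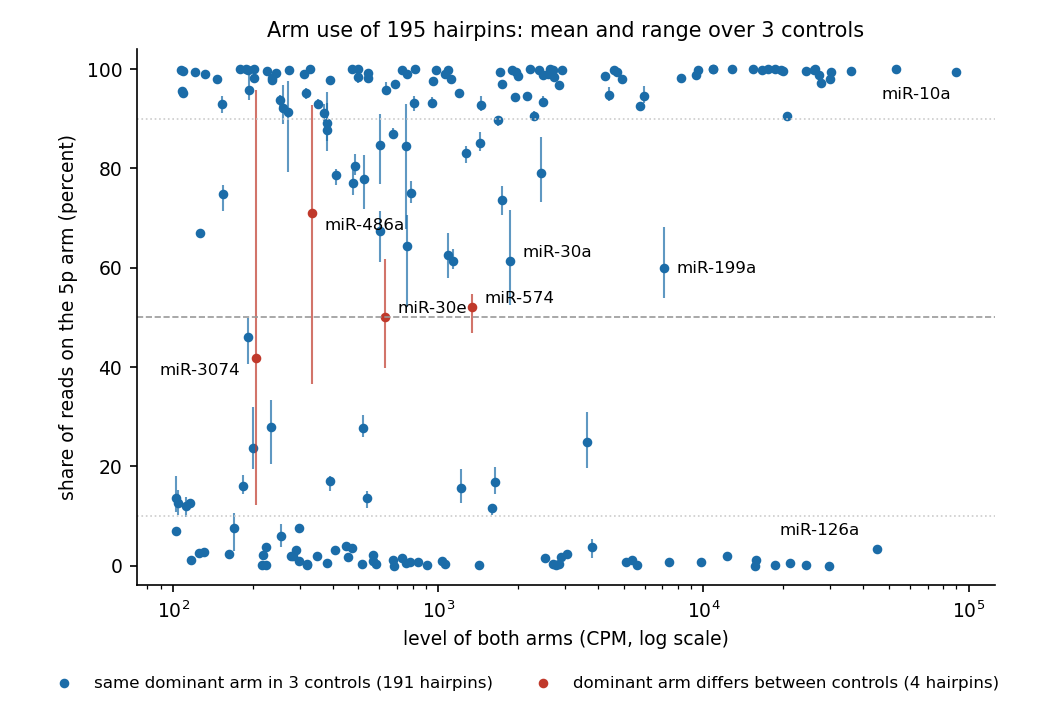
Share of a hairpin's reads on the 5p arm (y axis, percent) against the level of both arms (x axis, CPM, log scale) for the 195 hairpins at or above 100 CPM. Points are means and vertical lines the range over 3 controls. Dotted lines mark 10% and 90% and the dashed line 50%. Most points lie beyond the dotted lines, and the 4 red hairpins, among them miR-3074 and miR-30e, cross 50%.

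The dominant and the less used arm differed in their first base, a feature the arm rule did not use. Of 157 hairpins at or above 100 CPM with both sequences, 94 dominant arms (59.9%) but 26 of the other arms (16.6%) began with U, the base that Argonaute proteins are known to favour at this position. C was the first base of 11.5% of dominant arms and of 35.0% of the other arms. The pattern held on both sides of the hairpin, with U first in 64.6% of 99 dominant 5p arms and in 51.7% of 58 dominant 3p arms. The 5p-dominant hairpins began their other arm with U in 16.2% and the 3p-dominant ones in 17.2%. Of the reads on names with a RefSeq sequence, names starting with U took 66.6% ± 0.915, those with A 21.7% ± 1.21, those with C 11.0% ± 0.755 and those with G 0.764% ± 0.0282. These shares are descriptions over names that include families with 1 ancestry, and no test was made.

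By position in mm10 (GENCODE vM21), 166 names at or above 100 CPM had a single locus in the sequence table and held 61.0% ± 1.45 of miRNA reads. Of their reads, 44.1% ± 1.94 came from 61 names between annotated genes, 22.9% ± 0.219 from 53 names in introns of protein-coding genes and 18.1% ± 1.41 from 12 names whose hairpin overlaps an exon of a protein-coding transcript. miR-10a (chr11:96317165-96317274, plus strand) lay between annotated genes. miR-10b (chr2:74726070-74726137, plus strand) lay in an intron of Hoxd3. miR-196b (chr6:52230081-52230165, minus strand) overlapped an exon of a Hoxa9 transcript. miR-126a (chr2:26591357-26591429, plus strand) overlapped an exon of an Egfl7 transcript, and miR-21a (chr11:86584067-86584158, minus strand) one of Vmp1.

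Neighbouring hairpins differed widely in level. Clusters were formed from single-locus names with gaps of up to 10 kb. Names without a locus in the sequence table, such as miR-143-3p (29684 CPM) and miR-99b-5p (29401 CPM), entered no cluster. The order of clusters therefore covers placed names only and could differ with them. Among placed names, the largest cluster by mean was miR-144 with miR-451a (chr11:78073005-78073241, plus strand, between genes). Its summed level was 47663, 42281 and 19577 CPM. In control 3 it ranked below each of the other 5 clusters named here. miR-451a made up 98.9% of it, and miR-144-3p stood at 596, 410 and 188 CPM, like miR-451a highest in control 1 and lowest in control 3. The next was miR-429, miR-200a and miR-200b (chr4:156053905-156055750, minus strand, in an intron of Ttll10) with 31651 ± 2814. This cluster holds repressors of Zeb1 and Zeb2 that mark epithelium. Here miR-429-3p gave 49.3% of reads, miR-200a-3p 38.0% and miR-200b-3p 11.6%.

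The X-linked cluster from miR-450b to miR-322 (chrX:53047997-53054349, minus strand, between genes) summed to 30048 ± 1364. Among its placed single-locus names, miR-322-5p gave 89.5%, ahead of miR-542-5p (1143 ± 43.8), miR-322-3p (796 ± 203), miR-503-5p (489 ± 61.3), miR-450b-3p (324 ± 25.5) and miR-503-3p (277 ± 106). The sum and this order leave out miR-450a-5p (533 ± 32.1), which has 2 loci within this span. They also leave out miR-351-5p (2758 ± 405), which has no locus in the sequence table. The cluster of miR-99a and let-7c-1 (chr16:77598936-77599750, plus strand, in an intron of Mir99ahg) summed to 26122 ± 1628 and the cluster of let-7d, let-7f-1 and let-7a-1 (chr13:48536012-48538272, minus strand) to 20936 ± 627. Both sums leave out let-7a-5p, let-7c-5p and let-7f-5p, which have several loci. miR-199b shared its locus with a name of 0.895 CPM and is described above.

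Marker miRNAs of the kidney's cell types were all found. Whole kidneys mix cell types, so fewer cells of a type and less of a miRNA per cell cannot be told apart. The 15 lists, with 95 names in all, were chosen with earlier results of these data known, and each list is given as the sum of its names per control. The Hox list was the largest, at 163093, 155092 and 147741 CPM over 5 of 5 names. Next came the list for stroma and smooth muscle, at 57358, 56626 and 65927 CPM with 9 of 9 names present. It was led by miR-143-3p, with miR-145a-5p, which is made from the same transcript, at only 341 ± 79.4. miR-214-3p (1361 ± 161) and miR-214-5p (273 ± 31.7), whose hairpin overlaps an exon of the mesenchymal transcript Dnm3os, were present in every control. So was miR-199a-5p (4130 ± 843), which has 1 locus in Dnm3os and 1 between genes on chromosome 9.

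The endothelial list summed to 42903, 43365 and 54133 CPM over 3 of 3 names, highest in control 3. miR-126a-3p made up 92.8% of it, and miR-139-5p stood at 1844 ± 255. The epithelial list, with the miR-200 and miR-183 clusters, summed to 44780, 35994 and 39818 over 8 of 8 names. Within it miR-200c-3p (2695 ± 111) and miR-429-3p (15590 ± 942) were even over the controls. miR-183-5p (3903, 2031 and 2122 CPM), miR-182-5p (3233, 2179 and 2311) and miR-96-5p (968, 564 and 652), the sensory and epithelial miR-183 cluster, were all highest in control 1. miR-141-3p (240 ± 32.5), a miR-200 member paired on the genome with miR-200c, was much lower than its partner. miR-203-3p (458 ± 31.2) and miR-205-5p (231 ± 29.4), of stratified and basal epithelia, summed to 681, 694 and 692.

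Nephron and tubule miRNAs were of middle rank. The tubule list summed to 3971, 3717 and 6166 CPM over 5 of 5 names. Its mean was 4618 with and 3844 without control 3. miR-204-5p, whose hairpin lies within Trpm3, stood at 1954, 1768 and 2132 CPM and was even. miR-192-5p, an abundant miRNA of the mature proximal tubule, stood at 1425, 1263 and 3000 CPM, and its partner miR-194-5p at 583, 665 and 1023 CPM. Control 3 was highest for both, and miR-192-5p and miR-194-5p are also made in liver and gut. The related miR-215-5p stood at 6.51 ± 6.24 and miR-211-5p at 7.11 ± 1.36. The miR-30 list summed to 5720, 5009 and 8282, again highest in control 3, with miR-30d-5p (1690 ± 453) as its leading member. Its mean was 6337 with and 5365 without control 3. A separate Rfam mir-30 row, left out of this list, held a further 9213, 8772 and 10108 CPM. The proliferation list, with the miR-17-92 cluster needed by nephron progenitors and its 2 paralogous clusters, summed to 43807, 52476 and 40566 over 12 of 12 names. It was led by miR-92a-3p (24427 ± 4533), miR-93-5p (9501 ± 1670), miR-19b-3p (2852 ± 220), miR-20a-5p (2457 ± 202) and miR-17-5p (2077 ± 128).

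Blood miRNAs were high on the red cell side and low on the white cell side. The erythroid list summed to 48123, 43136 and 19855 CPM, of which miR-451a was 97.5%. Its mean was 37038 with and 45630 without control 3. A separate Rfam mir-451 row held a further 23733, 26223 and 13955 CPM, also lowest in control 3. The leukocyte list summed to 438, 779 and 469 CPM over 5 of 5 names. Its miR-142a-3p (154 ± 32.0), miR-223-3p (127 ± 30.0) and miR-155-5p (109 ± 21.5) were low, while miR-150-5p, a lymphocyte miRNA, stood at 29.4, 333 and 68.3 CPM.

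Several markers of organs other than the kidney differed widely between the libraries. In control 3, miR-122-5p, which makes up most of the miRNA of hepatocytes, reached 10972 CPM, against 716 and 874 in controls 1 and 2, and miR-122-3p reached 164 against 10.6 and 11.3. The list for endocrine pancreas and liver summed to 1078, 1424 and 11290 CPM, and its mean was 4597 with and 1251 without control 3. Its islet member miR-375-3p did not follow, at 354, 544 and 304 CPM. miR-216a-5p and miR-217-5p, of the exocrine pancreas, stayed under 1 CPM in each control. The remaining name, miR-802-5p, stood at 7.22, 6.21 and 12.3 CPM, also highest in control 3 but by less than miR-122-5p.

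Also in control 3, miR-202-5p, a gonadal miRNA, stood at 523 CPM against 21.2 and 2.46, and miR-202-3p at 34.9 against 0.201 and 0.147. miR-202-3p rested on 7 and 4 reads in controls 1 and 2 and on 1026 in control 3. The gonad list's mean was 194 CPM with and 12.0 without control 3. miRNAs of the miR-290 cluster, known from pluripotent and germ cells, showed the same library: miR-292a-3p stood at 3.41, 1.51 and 77.4 and miR-293-3p at 2.84, 1.54 and 35.7 CPM. The early embryo list summed to 12.4, 8.09 and 146, and its mean was 55.5 with and 10.2 without control 3. Of its 13 names, 12 were found. miR-367-3p was at 0 in all 3 controls, miR-290a-3p, miR-291a-3p and miR-292a-5p were at 0 in control 2, and miR-302a-3p, miR-302b-3p and miR-302d-3p stayed between 1.12 and 2.06 CPM in each control.

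Control 1 was high in skeletal muscle markers and in 2 of 7 neural markers. miR-206-3p, a skeletal muscle miRNA, stood at 777, 89.3 and 90.5 CPM and miR-133b-3p, from the same transcript, at 21.6, 2.87 and 3.41 CPM. The striated muscle list summed to 1144, 253 and 205 CPM, and its mean was 534 with and 229 without control 1. The list's miR-1a-3p (81.8, 30.6 and 21.2 CPM), miR-133a-3p (96.8, 32.5 and 33.3) and miR-499-5p (166, 98.0 and 55.9) were also highest in control 1. So was miR-208b-3p, at 0.373, 0.221 and 0.102 CPM. miR-208a-3p, of heart muscle, was at 0 in controls 1 and 2 and at 0.136 CPM in control 3. miR-124-3p, which defines neurons, stood at 610, 38.9 and 22.7 CPM and miR-137-3p at 59.3, 5.11 and 3.68 CPM. The other 5 neural names did not follow to this extent. miR-9-5p, of neural progenitors, stood at 2116, 2194 and 1588 CPM and miR-128-3p at 340, 239 and 257 CPM. miR-9-3p (26.4, 32.5 and 19.2), miR-153-3p (10.1, 5.77 and 10.2) and miR-219a-5p (8.91, 5.37 and 6.23) were low. The neural list summed to 3170, 2521 and 1906 CPM. The part of non-renal tissue in these libraries was not tested.

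**Figure D4:**
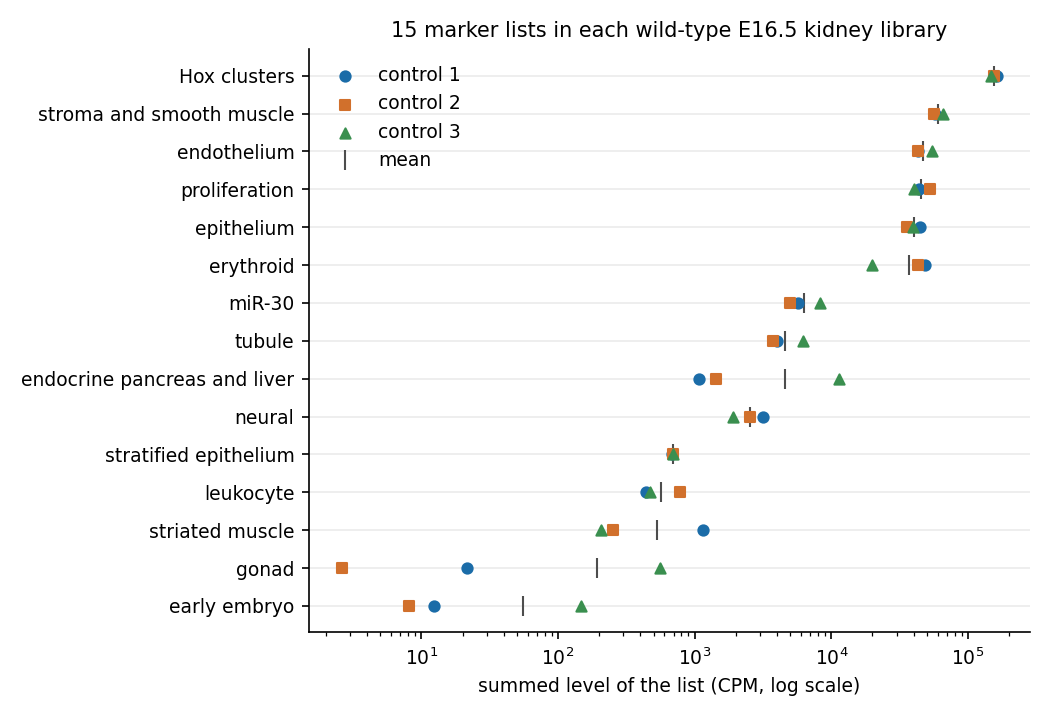
Summed level of each of 15 marker lists (x axis, CPM, log scale) in the 3 controls (coloured symbols), with the mean as a grey tick. The epithelial, stromal and Hox lists lie close together in the 3 controls, while control 3 stands to the right for endocrine pancreas and liver, gonad and early embryo and to the left for erythroid, and control 1 to the right for striated muscle.

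Stability over the controls was measured as the coefficient of variation (CV) for the 242 names at or above 100 CPM. The median CV was 15.0%, with quartiles of 8.26% and 23.8%. It was 14.9%, 11.4% and 9.78% without controls 1, 2 and 3. These values rest on 2 libraries each and are not directly comparable with a CV over 3. With all 3 controls, the median was 16.9% for the 149 names between 100 and 1000 CPM. It was 14.3% for the 64 names between 1000 and 10000 and 9.09% for the 29 names above. Read counting alone gives a CV of 0.760% at the median and 1.79% at most. There were 78 names with a CV under 10%, 18 over 50% and 9 over 100%.

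The steadiest name was miR-345-5p, at 302, 308 and 314 CPM (CV 1.99%). Its sequence is shown because its CV was the lowest here, without further scaling. Its use as a constant reference was not tested.
miR-345-5p: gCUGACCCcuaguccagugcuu
It was followed by miR-199b-5p (2.12%), miR-30a-3p (2.26%), miR-199b-3p (2.31%), miR-15b-3p (2.48%), miR-369-3p (2.64%), miR-151-5p (3.13%), let-7d-5p (3.20%), miR-23a-3p (3.39%) and miR-25-3p (3.79%). With 3 libraries the order within this group depended on scaling: only 4 of these 10 names stayed among the 10 lowest after TMM scaling and 5 after DESeq2 size factors.

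Most of the 10 least stable names stood apart in a single library. miR-124-3p, miR-206-3p and miR-138-5p, a neuronal miRNA at 1064, 223 and 190 CPM, were high in control 1. miR-122-5p and miR-202-5p were high in control 3. miR-3074-5p, miR-532-5p and miR-150-5p were high in control 2, and let-7a-1-3p was low in control 3. miR-486a-5p differed in all 3 controls, at 28.0, 630 and 204 CPM. These 10 names were the same after TMM scaling. Counting every name at or above 100 CPM whose highest or lowest control lay at least 2-fold from the nearest other control gave 19 names, 4 for control 1, 5 for control 2 and 10 for control 3. Each name was counted once, for its high control where a high and a low control both met the rule, as in miR-486a-5p, miR-150-5p and miR-202-5p. The names not yet given for control 3 were miR-1198-5p (555, 844 and 216 CPM), miR-486b-5p (432, 225 and 73.7), miR-669f-5p (328, 411 and 46.0) and miR-200b-5p (193, 193 and 53.8), all low there. miR-383-5p (87.1, 214 and 90.7) was the remaining name high in control 2.

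**Figure D5:**
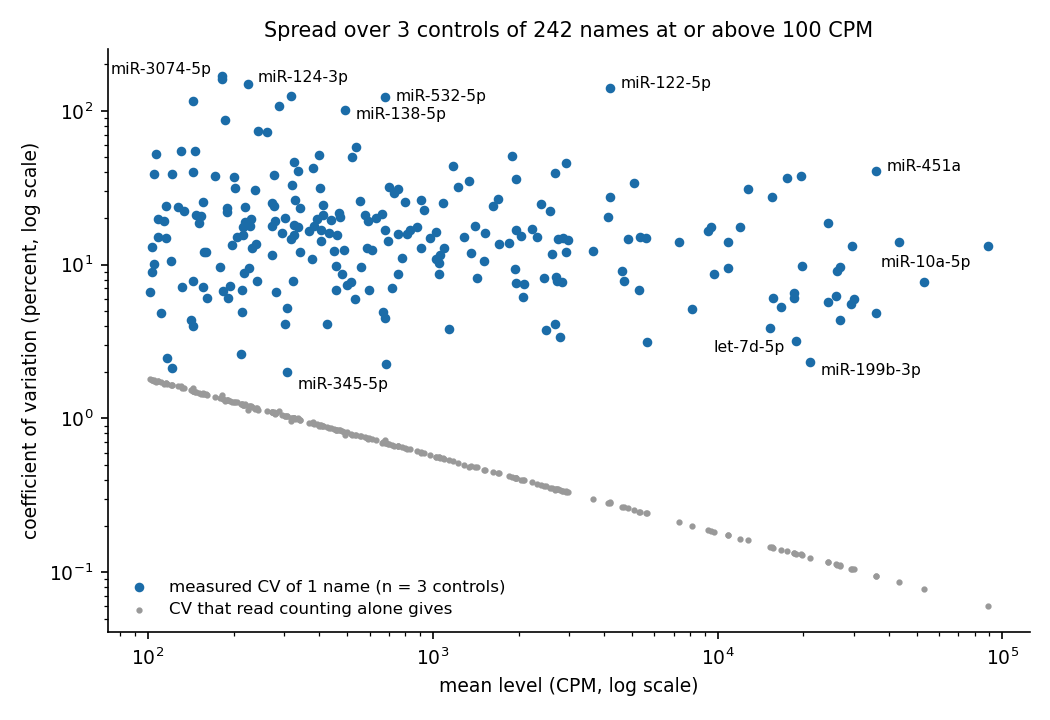
CV over 3 controls (y axis, percent, log scale) against mean level (x axis, CPM, log scale) for the 242 names at or above 100 CPM. Blue points are measured CVs and grey points the CV that read counting alone gives. The grey points lie below the blue ones, and miR-3074-5p, miR-124-3p and miR-122-5p, each raised in 1 library, lie near the top.

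Some unstable names differed in how reads were divided between names of like sequence. let-7a-1-3p and let-7c-2-3p have the same mature sequence.
let-7a-1-3p: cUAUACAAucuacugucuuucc
let-7c-2-3p: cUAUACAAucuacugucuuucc
let-7a-1-3p took 99.1%, 90.3% and 2.71% of the pair's reads, at 317, 235 and 6.23 CPM, while the pair's sum was 320, 260 and 230 CPM. The CV was 86.5% and 145% for the single names and 17.0% for their sum. miR-199a-3p and miR-199b-3p, identical as printed above, were divided with 93.5%, 86.8% and 83.2% on miR-199b-3p. Their sum (24021 ± 860, CV 3.58%) was steadier than miR-199a-3p alone (1498, 3174 and 4159). It was less steady than miR-199b-3p alone (CV 2.31%), whose level depends on this division. miR-486a-5p took 6.08%, 73.7% and 73.5% of the reads that it and miR-486b-5p had together, and their sum still ranged from 278 to 855 CPM. How a read fitting several names was assigned is not stated by the labels or files.

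miR-3074-5p had the highest CV of all, at 5.33, 535 and 3.64 CPM. It belongs to hairpins on the strand opposite to miR-24-1 (chr13:63301208-63301275, plus strand) and miR-24-2 (chr8:84208815-84208921, plus strand), and bases 1 to 20 of its 22 are the reverse complement of miR-24-3p. Capitals here mark the complementary stretch, not the seed.
miR-3074-5p: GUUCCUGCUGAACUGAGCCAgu
miR-24-3p: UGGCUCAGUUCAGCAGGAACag
miR-24-3p itself stood at 4605, 3656 and 7004 CPM, lowest in control 2, where miR-3074-5p was high. The other arms of these hairpins differed far less: miR-3074-1-3p stood at 13.6, 13.5 and 11.7 CPM and miR-3074-2-3p at 11.4, 9.89 and 14.5 CPM. As a result the 5p share of miR-3074 was 17.5%, 95.8% and 12.2%.

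miR-532-5p, also high in control 2, stood at 215, 1649 and 178 CPM. Its partner arm miR-532-3p stood at 16.3, 133 and 84.6 CPM. miR-501-3p (279, 566 and 294) and miR-500-3p (76.5, 128 and 71.9), known to lie in the same X-linked cluster, were also highest in control 2 but by less, and miR-188-5p (28.7, 36.3 and 31.0) and miR-362-5p (32.0, 28.0 and 27.6) of that cluster were nearly even. These cluster mates were chosen after their values were seen.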

How the data were processed

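Small RNA of whole mouse kidneys at embryonic day 16.5 was sequenced by the submitters, and the 3 wild-type control libraries of 9 were used. Per the labels' protocols, RNA was extracted with Trizol and libraries followed BGI protocols. CASAVA 1.8, Bowtie2 and mm10 appear in the submitters' processing notes. Their roles, and the rule for reads matching several names, are not given in the sources used here. The deposited counts are whole reads per small RNA name, and per the file headers they sum to 33620943 to 42609889 per control. Names starting with mmu- were kept, mature and hairpin rows of a name were added, and levels are reads per 1e+06 of these (CPM), without further scaling. Rows for Rfam families name no single miRNA and stayed out.

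Arms, seeds (bases 2 to 8, from 1269 names with a RefSeq sequence, GRCm38.p6), marker sums, clusters and CVs were computed with Python 3.11.15 and pandas 2.3.3. Loci were set against GENCODE vM21. edgeR 4.0.16 TMM factors (0.974 to 1.04) and DESeq2 1.42.0 size factors served only as alternatives, besides other floors, arm limits, seeds and denominators, and leaving out each control. The CV step was tested on simulated data. No test was made, since 1 group was described. The miRNA names, marker lists and rules were chosen with earlier results of these data known. The named miRNAs were the 25 with the highest mean, the 10 largest seed families with their members, the 10 hairpins nearest an even arm split with those that switched arm, the 10 most abundant 3p-dominant hairpins, the 10 lowest and 10 highest CVs, the markers and the 6 largest clusters.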

Additional observations from a re-analysis of the deposited data

Results flagged for a closer look

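Some miRNA reads were deposited on rows outside the miRNA names described above. Rows for Rfam microRNA families, which name a family rather than a miRNA, held 6.0% of all counted reads as a mean over the 3 controls, and the files hold no control for this signal other than the libraries themselves. By family, such a row held 59.0% of the reads of mir-30 (60.5%, 62.6% and 54.0% in controls 1, 2 and 3), 38.0% of those of mir-451 (33.5%, 38.5% and 41.9%) and 16.3% of those of mir-181 (18.2%, 15.0% and 15.7%). The share was 19.8% for mir-23, 16.4% for mir-221, 10.8% for mir-182 and 7.52% for mir-126. For let-7 it was 0.209% and for mir-10 4.89%. Names affected include miR-30 members, miR-451a, the miR-181 family, miR-23a-3p, miR-182-5p and miR-126a-3p. Their levels, ranks and CVs given above therefore leave out a part of the family's reads. That part differs between families, and levels were not corrected for it.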

How the results depend on the processing

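No paired analysis was possible because only the control group was described and it has no partner group. Of 123 values of 21 main results under alternatives, 113 stayed within 1 SD of the controls or, for counts and values without an SD, within 1.5 times the main value, and 10 did not. The 214 hairpins with 90% of reads on 1 arm became 261 at 75%, 153 with a floor of 100 CPM and 316 with none. The number of names at or above 1 CPM, 737, became 445 with a floor of 10 and 1507 with none, by construction. The let-7 family share became 16.9% when families were taken from the deposited description column, an alternative chosen after seeing the data. Per 1e+06 of all counted reads, a larger denominator, the means were 32790 for epithelium, 561.8 for stratified epithelium, 48907 for stroma, 38168 for endothelium, 126640 for the Hox list and 37174 for proliferation. The median CV ranged from 9.78% to 14.9% when 1 control was left out, lowest without control 3, against 15.0% with all. A CV over 2 libraries is not directly comparable with a CV over 3. None of 125 values of single leading names moved by more than their spread, and the 25 leading names kept 24 to 25 members without any 1 control. Depth set no limit at 100 CPM, where read counting gives a CV of at most 1.79%, and the number of controls limits every SD.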

Other observations

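Below 100 CPM, 11 of the 281 names with a mean of at least 5 CPM were at least 10-fold apart in 1 control, and 7 of these were high in control 3, a rule set after the values were seen. Besides miR-122-3p, miR-202-3p, miR-292a-3p and miR-293-3p, they were miR-2137 (0.602, 0.441 and 30.1 CPM), miR-465c-3p (0.544, 0.110 and 17.9) and miR-871-5p (0.630, 0.478 and 15.5). miR-465c-3p and miR-871-5p belong to X-linked miRNAs known from the testis, and miR-741-3p and miR-470-5p of the same kind stood at 0.229, 0.0368 and 11.7 and at 0.860, 0.625 and 10.9 CPM. miR-137-3p was high in control 1 and miR-297c-5p (1.06, 101 and 2.25) in control 2, while miR-466p-3p (7.14, 0.441 and 12.9) was low in control 2 and miR-669c-5p (26.2, 59.7 and 1.63) low in control 3. The last 3 belong to large families of near-identical copies, in which reads may be divided between names.

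miR-7b-5p, a neuronal and endocrine miRNA, stood at 41.1, 10.2 and 4.33 CPM, highest in control 1 like miR-124-3p, miR-137-3p and miR-138-5p.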
